A study of Mus musculus with 6 samples.

Results

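Chemokines and their receptors were followed across the cell types of lower abdominal muscle (LAM), the muscle of the mouse groin and lower belly wall. The members were all genes of the deposited matrix whose names are those of CC, CXC or CX3C chemokine ligands, their receptors or the atypical receptors, which gave 45 of the 16494 genes measured. They comprised 30 ligands (18 CC, 11 CXC and 1 CX3C) and 15 receptors (11 signalling and 4 atypical). Single-cell RNA-Seq had been performed on LAM from 3 WT and 3 Aromhum male mice of the FVB/N strain at 9 to 10 weeks of age. The Aromhum mice carry a genomic fragment with the whole human aromatase gene (CYP19A1) and its own tissue-specific promoters, so the enzyme that converts androgens to oestrogens is expressed under human promoters, and the males develop scrotal hernias. WT mice were littermates without the transgene, and each mouse gave 1 library. Libraries are called WT 1 to WT 3 and Arom 1 to Arom 3 here.

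Chemokines are small secreted proteins that direct the movement of white blood cells. Most signal through receptors coupled to Gi proteins on the moving cell, and the positions of the cysteines near the start of the protein give the CC, CXC and CX3C families their names. Atypical receptors (Ackr1 to Ackr4) bind chemokines without Gi signalling and carry, store or remove them. In muscle, fibroblasts, vessel walls and resident macrophages are known sources, and ligands of Ccr2 such as Ccl2 draw monocytes into injured muscle, where they take part in repair and in fibrosis.

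Each library held 7505 to 12999 cells with at least 200 genes and 1000 unique molecular identifiers (UMIs), 59227 cells in all. The median was 5976, 5621 and 6412 UMIs per cell in WT and 7587.5, 7057 and 9360.5 in Arom, so every Arom library was deeper. The part of this depth in the member results was not tested. Human CYP19A1 had 770, 797 and 787 UMIs in the Aromhum libraries and none in the WT libraries, which bears out the labels. Of the distinct barcodes, 402 occurred in at least 2 libraries. Cells were clustered without the 45 members and named only from other marker genes, so that every name below means "-like". Within the fibroblast-like cells, the names Esr1hi HAF, Mmp3hi HAF (hernia-associated fibroblasts), Tppp3 FAP (fibro-adipogenic progenitors) and Dmknhi follow markers that the study chose on these samples. WT 1 held 411 Mmp3hi cells against 6 and 37 in WT 2 and WT 3. The name joins subcluster 3 (led by Saa3, Hp and Lcn2, with Mmp3 among its leading genes), which held 34, 0 and 3 cells in WT and 564, 1069 and 3 in Arom, and subcluster 9 (led by Tspan8, Epyc and Lgr5), which held the others. Arom 3 held 47 Mmp3hi cells against 777 and 1556 in Arom 1 and Arom 2, and in the sums over all cells its Cxcl14 and Cxcl16 values lay nearest to those of WT.

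Several members lie side by side in the genome. On chromosome 11 (mm10/GRCm38), which holds 13 of the 45, Ccl2 (82035571 to 82037453), Ccl7 (82045712 to 82047525), Ccl11 (82057823 to 82062955), Ccl12 (82101845 to 82103400) and Ccl8 (82115185 to 82116799) follow each other on the plus strand. On chromosome 5, Cxcl1 (90891241 to 90893115) and Cxcl2 (90903871 to 90905938) are neighbours, with Cxcl3 (90786103 to 90789600) and Cxcl5 (90759360 to 90761624) close by. The 250 bases before the RefSeq start of 4 of these genes are shown. Cxcl1, Cxcl2 and Cxcl3 shared their leading source cell. Ccl8 had the most calls between genotypes when cell types and fibroblast subclusters were both counted. These groups are not independent, because fibroblast-like cells contain the subclusters. Capitals mark the letters common to sites of the NF-kB family, GGGA and CC with any 4 bases between them, searched on both strands. Sequences are from RefSeq on GRCm38.p6, plus strand, at chr5:90890995-90891244 (Cxcl1), chr5:90903649-90903898 (Cxcl2), chr5:90785851-90786100 (Cxcl3) and chr11:82114935-82115184 (Ccl8).
Cxcl1: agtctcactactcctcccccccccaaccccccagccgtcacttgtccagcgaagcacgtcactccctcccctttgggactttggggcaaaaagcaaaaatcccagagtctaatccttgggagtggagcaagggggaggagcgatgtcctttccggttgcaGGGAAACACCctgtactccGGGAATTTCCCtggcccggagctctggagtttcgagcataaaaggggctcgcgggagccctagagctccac
Cxcl2: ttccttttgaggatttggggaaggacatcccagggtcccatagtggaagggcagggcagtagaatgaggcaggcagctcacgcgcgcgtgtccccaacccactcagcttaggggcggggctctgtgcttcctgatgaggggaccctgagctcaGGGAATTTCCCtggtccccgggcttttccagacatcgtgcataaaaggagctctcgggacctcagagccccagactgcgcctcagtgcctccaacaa
Cxcl3: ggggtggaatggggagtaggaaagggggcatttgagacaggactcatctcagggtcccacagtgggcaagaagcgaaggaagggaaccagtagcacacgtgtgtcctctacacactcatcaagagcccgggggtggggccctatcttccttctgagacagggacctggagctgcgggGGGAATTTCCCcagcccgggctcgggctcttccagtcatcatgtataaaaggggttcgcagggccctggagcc
Ccl8: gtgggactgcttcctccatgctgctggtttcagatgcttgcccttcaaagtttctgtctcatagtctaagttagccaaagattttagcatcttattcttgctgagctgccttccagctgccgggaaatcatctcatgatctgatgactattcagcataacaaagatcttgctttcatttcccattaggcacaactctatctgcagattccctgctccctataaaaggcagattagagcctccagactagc
Cxcl1 held 3 matches, Cxcl2 and Cxcl3 held 2 each, and Ccl8 held 0. In all 3 Cxcl genes, 2 of the matches are the overlapping readings of both strands within GGGAATTTCCC, and the match nearest to the start lay 60, 86 and 62 bases before it, respectively. Among the 33 members found in the RefSeq table, 12 (36.4%) held these letters, beside 17.3% of all 27025 promoters of that length. The TATA letters TATAAA, searched in the same way, were in 10 of the 33 (30.3%) and in 12.97% of all promoters. The full oestrogen response element, GGTCA and TGACC with any 3 bases between them, was in 0 of the 33 and in 0.063% of all. A match of letters is a description and not a bound site.

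Macrophages were the leading source or carrier for the largest number of members. Ranked by the mean over mice of CPM, a gene's UMIs scaled to the same total for every mouse and cell type, macrophages led for 16 members, blood endothelial cells for 6, T cells, dendritic cells and fibroblast-like cells for 5 each, lymphatic endothelial cells and smooth muscle/pericytes for 3 each, and glial cells and myonuclei for 1 each. In 19 members the leading cell type lay above the next in every mouse. Of the 45, 38 reached 20 CPM in at least 1 cell type. The other 7 (Cx3cl1, Ccl19, Ccr9, Cxcl17, Ccr10, Cxcr2 and Ccl28) did not, with Cx3cl1 the highest of them at 18.1 ± 2.3 CPM in blood endothelial cells (SD, n = 6). Levels below are such CPM, as mean ± SD over the 6 mice unless stated. The libraries count the 3' ends of transcripts, so a CPM value does not depend on gene length. Groups under 10 cells in a mouse gave no level for that mouse, which left B cells and neutrophils with a level in 1 mouse each (WT 2 and Arom 1). Both were left out of all rankings, so the leading, highest and next cell types are among the others. Without marked doublets, the Arom 1 neutrophils had 27702 CPM of Cxcl2, 5085 of Ccl3, 2049 of Ccl6 and 911 of Ccr1. They had 1214 of Cxcl1 and 1594 of Ccl4, and the WT 2 B cells had 307 of Cxcr4 and 757 of Ccr7.

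**Figure D1:**
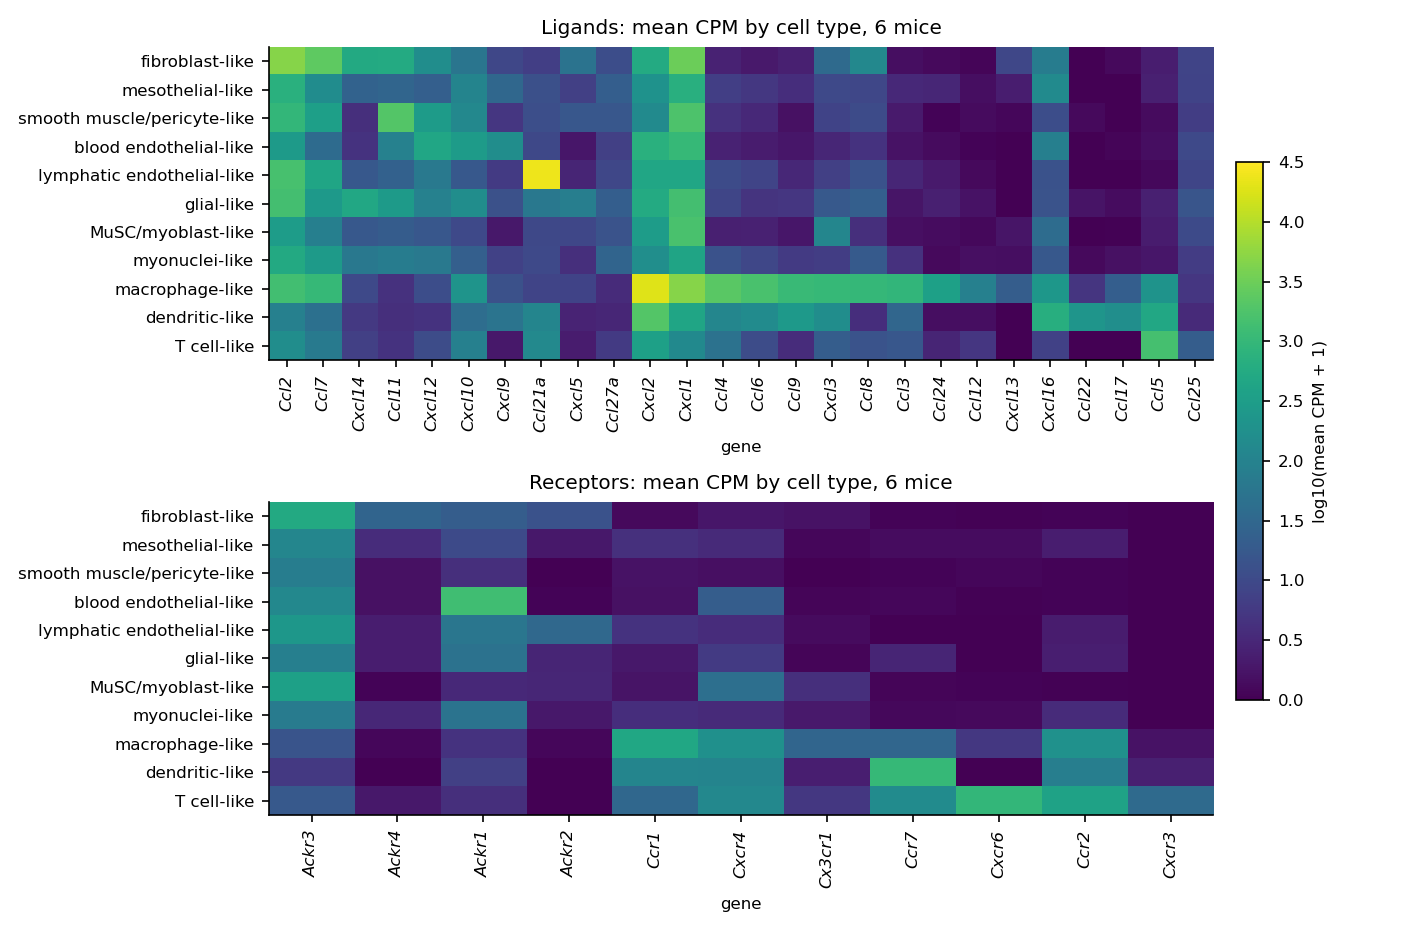
Mean level of members that reached 20 CPM in a cell type (columns, ligands above and receptors below) in each cell type (rows) over mice, as log10(mean CPM + 1) on the colour scale, from dark (low) to yellow (high). The brightest fields are Ccl21a in lymphatic endothelial cells and Cxcl2 in macrophages.

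Among the ligands that guide cells in resting tissue, Ccl21a, which draws Ccr7-bearing dendritic and T cells into lymph vessels, was by far highest in lymphatic endothelial cells. Its level there was 26127, 24366 and 22825 CPM in WT 1 to WT 3 and 30850, 21242 and 22801 in Arom 1 to Arom 3, so the genotypes overlapped. T cells came next at 129.5 ± 307 CPM, a mean carried by Arom 1 (756 CPM, against 0 to 10.99 in the other mice). Its near-identical gene copies make the count of this gene uncertain. Ccr7, the receptor of Ccl21, was at 1044 ± 222 CPM in dendritic cells and 145.9 ± 106 in T cells. Cxcl12, the ligand of Cxcr4 and Ackr3, was led by blood endothelial cells (463 ± 188), followed by smooth muscle/pericytes (294 ± 96.4), which it exceeded in 5 of 6 mice. Within the vessels it was at 578 to 978 CPM in capillary cells and 507 to 984 in pericytes, but at 69.0 to 151 in venular cells, with no overlap between capillary and venular cells. Cxcl14 averaged 545 ± 224 CPM across fibroblast-like and 492 ± 207 across glial cells, neighbours whose order held in only 4 of 6 mice, and 635 ± 249 and 193 ± 175 under the study's stated limits on cells, which also leave out cells with over 2500 genes or over 5% mitochondrial UMIs. Cxcl16, a membrane-bound ligand of Cxcr6, was led by dendritic cells (656 ± 173), above macrophages (241 ± 118) in every mouse, and Cxcr6 itself by T cells (937 ± 603), with 0 CPM in the 18 T cells of WT 3. Ccl27a (27.1 ± 6.7 CPM in myonuclei) and Ccl25 (20.1 ± 12.03 in T cells) were low, and neither leading cell type was above the next in every mouse. Under the stated limits on cells Ccl25 was at 6.35 ± 11.0 in T cells (n = 3) and highest in smooth muscle/pericytes (19.4 ± 17.2), which is under 20 CPM.

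Among the ranked types, the most abundant ligands of neutrophils were led by macrophages. Cxcl2, which acts on Cxcr2, was at 16020, 11846 and 20570 CPM in WT macrophages and 25018, 26174 and 13695 in Arom macrophages, and dendritic cells came next at 1988 ± 438. The unranked neutrophils of Arom 1 had 27702 CPM of Cxcl2 without marked doublets. Cxcl1 was at 4723 ± 2345 CPM in macrophages and 3121 ± 723 in fibroblast-like cells, and macrophages were above in 5 of 6 mice. Smooth muscle/pericytes followed at 1746 ± 806 CPM, or 5127 ± 1872 under the stated limits on cells, where fibroblast-like cells had 4702 ± 1046. Cxcl3 (1030 ± 329 in macrophages, or 1773 ± 1010 under the stated limits on cells) had the same leading cell, whereas Cxcl5 was low and highest in glial cells (81.8 ± 55.4) and fibroblast-like cells (50.8 ± 24.0), in the opposite order (106 ± 221 and 115 ± 53.4) under the stated limits on cells. Cxcr2 itself was at no more than 0.80 CPM in any cell type with a level in at least 2 mice, and the 41 neutrophil-like cells, 4 to 11 per mouse, held 16 Cxcr2 UMIs.

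Ccl2, Ccl7 and Ccl11, ligands of monocytes and eosinophils, were led by fibroblast-like cells or smooth muscle/pericytes. Ccl2, the main ligand of Ccr2, was at 4411, 4000 and 4661 CPM in WT and 7084, 4917 and 3484 in Arom fibroblast-like cells, and at a mean of 1539 in the next cell type, lymphatic endothelial cells. Under the stated limits on cells smooth muscle/pericytes came next, at 3286 ± 1249 CPM against 934 ± 406 in all cells kept. Ccl7, which acts on Ccr1, Ccr2 and Ccr3, was also led by fibroblast-like cells (2446 ± 463), with macrophages next (1042 ± 839), or smooth muscle/pericytes next (1550 ± 1131) under the stated limits on cells. Ccl11, the eosinophil ligand eotaxin, was led by smooth muscle/pericytes (1985 ± 937, or 7625 ± 4596 under the stated limits on cells), above fibroblast-like cells (561 ± 132) in every mouse. Within that class it lay in pericytes, at 7665, 6778 and 3520 CPM in WT and 3854, 3202 and 4139 in Arom, while vascular smooth muscle cells had 0 to 13.2. Ccl8, another monocyte ligand, was at 590, 0.527 and 14.6 CPM in WT macrophages and 5009, 353 and 11.2 in Arom macrophages, the widest spread relative to the mean among the 38. It was at 124.6 ± 97.5 in fibroblast-like cells, and macrophages exceeded these in only 3 of 6 mice. Most macrophage Ccl8 lay in one subcluster led by Lyve1, Cd209f and Folr2, of which WT mice had 105, 5 and 7 cells and Arom mice 449, 16 and 10.

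Among the ranked types, macrophages also led Ccl4 (2206 ± 1089 CPM), Ccl6 (1636 ± 416), Ccl9 (1104 ± 172), Ccl3 (898 ± 647), Ccl24 (353 ± 196), Ccl12 (91.8 ± 129) and Cxcl13 (20.1 ± 35.3). The unranked neutrophils of Arom 1 had 5085 CPM of Ccl3, 2049 of Ccl6 and 1594 of Ccl4 without marked doublets. Ccl3 and Ccl4 draw monocytes and T cells, Ccl6 and Ccl9 are ligands of Ccr1, Ccl24 of the eosinophil receptor Ccr3, and Cxcl13 of Cxcr5 on B cells. Macrophages were above the next ranked cell type in every mouse for Ccl4, Ccl6, Ccl9, Ccl3 and Ccl24, but in 3 mice for Ccl12 and 2 for Cxcl13. T cells led Ccl5 (1516 ± 613, or 2337 ± 268 with n = 3 under the stated limits on cells), which draws T cells and monocytes. The T cell name also covers a subcluster of 101 cells led by Csf2, Gata3 and Calca and one of 63 led by AW112010, Nkg7 and Eomes. Of 7 T cell markers, 6 and 4 were detected in them, so their name is uncertain. Dendritic cells led Ccl22 (218 ± 342) and Ccl17 (168 ± 286), both ligands of Ccr4, with an SD above the mean. The interferon-induced ligands of Cxcr3, Cxcl9 (160 ± 40.3) and Cxcl10 (299.9 ± 116), were highest in blood endothelial cells. Under the stated limits on cells, Cxcl10 was higher in T cells (614 ± 514, n = 3) and smooth muscle/pericytes (438 ± 825) than in blood endothelial cells (307 ± 131). Arom 1 stood apart in Cxcl10, with 1314 CPM in pericytes against 10.3 to 248 in the other mice.

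The signalling receptors that reached 20 CPM were led by immune cells. Ccr2, the receptor of Ccl2, was at 389 ± 124 CPM in T cells and 185 ± 52.5 in macrophages. No monocyte class was ranked. A subcluster of 167 immune cells scored best for monocyte markers but was left out, because mast cell genes (Mcpt4, Tpsab1 and Cma1) led it. At least 1 Ccr2 UMI was found in 50.4% of macrophages and 49.2% of T cells, and in 14.2% and 30.2% after each cell was thinned to 1000 UMIs. In blood endothelial and fibroblast-like cells, which should lack it, the unthinned shares were 0.0536% and 0.103%. The median depth was 5273.5 UMIs in macrophages, 2473.5 in T cells, 4171 in blood endothelial and 9894 in fibroblast-like cells. Ccr1, which binds Ccl3 and Ccl5, was at 911 CPM in the unranked neutrophils of Arom 1 without marked doublets. Among the ranked types it was highest in macrophages (485 ± 94.7), above dendritic cells, the next type, in every mouse. Cx3cr1, a receptor of monocytes and resident macrophages, was at 27.8 ± 18.5 in macrophages, and Cxcr3 at 34.4 ± 54.2 in T cells, where it exceeded the next cell type in only 2 mice. Among the ranked types, Cxcr4 was highest in macrophages (182 ± 37.8), then T cells (123 ± 45.8) and dendritic cells (104 ± 26.3), neighbours whose spreads overlap. The unranked B cells of WT 2 had 307 CPM of Cxcr4 without marked doublets. Of muscle stem cells and myoblasts (MuSC) (median 4160 UMIs), 13.6% carried a Cxcr4 UMI against 0.797% of the more deeply sequenced fibroblast-like cells, or 4.59% and 0.118% after thinning.

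The atypical receptors were led by endothelial and fibroblast-like cells. Ackr1, which carries chemokines across the venule wall, was at 1302 ± 541 CPM in blood endothelial cells and 58.4 ± 52.0 in lymphatic ones, and within blood vessels at 2311 to 3294 in venular but 2.86 to 6.23 in capillary cells. Ackr3, which takes up Cxcl12, was led by fibroblast-like cells (541 ± 117) and MuSC (364 ± 155), in that order in 5 of 6 mice. Ackr2, which takes up CC chemokines, was at 32.8 ± 13.03 in lymphatic endothelial cells. Ackr4, which takes up Ccl19 and Ccl21, was at 27.4 ± 11.2 in fibroblast-like cells, or 12.9 ± 3.95 under the stated limits on cells, which is under 20 CPM.

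Genotypes were compared by edgeR's quasi-likelihood test on UMIs summed per mouse and cell type, with Benjamini-Hochberg adjustment over all genes tested and a threshold of 0.05. Fold changes are Arom over WT on the log2 scale ± SE, and values per mouse are normalised CPM from that fit. A 2-sided exact permutation test of 3 against 3 mice cannot go below p = 0.1. In total 28 pairs of member and cell type (or the sum over all cells) were called. Of these, 27 stayed called without Arom 3 and 10 without WT 1, but 2 to 4 without any other mouse. Within the study's stated limits on cells, 4 of the 18 pairs that were tested again stayed called.

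With all cells of a mouse summed, Cxcl16 and Cxcl14 were higher and Cxcl9 was lower in Arom mice. Of 41 members tested, 2 were called higher and 1 lower, against 23.5% of all genes called in that comparison (12.3% higher and 11.2% lower). Cxcl14 was at 140, 158 and 149 normalised CPM in WT and 522, 577 and 300 in Arom (1.65 ± 0.25, edgeR adjusted p = 0.0183). Cxcl16 was at 61.9, 49.2 and 48.7 in WT and 157, 136 and 70.6 in Arom (1.19 ± 0.30, edgeR adjusted p = 0.0383). Cxcl9 was at 45.3, 77.0 and 77.0 in WT and 33.0, 19.4 and 37.1 in Arom (-1.15 ± 0.31, edgeR adjusted p = 0.0434). None of the 3 overlapped between genotypes. In all, 3 members were higher and 3 lower without overlap, against 23.9% of all genes higher and 23.6% lower. The 14 dissociation-response genes (Fos, Jun, Egr1, heat-shock genes and others, which rise while tissue is taken apart) summed to 18915 to 21891 CPM in WT and 11846 to 15179 in Arom, with 7 called lower, and their part in these results was not tested. With the mouse number as a replicate block, 10 members were called higher and 0 lower (13% and 13.2% of all genes in that fit), and Cxcl9 was not called (-1.16, edgeR adjusted p = 0.0651). In such sums, fewer cells of a type and less RNA per cell cannot be told apart.

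The cells behind these sums differed too. Subclusters whose leading genes held more markers of another class (mixed) were left out of every named type but counted in the totals. Such mixed cells were 14.3%, 17.7% and 18.3% of WT and 10.3%, 10.1% and 10.1% of Arom cells (2-sided exact permutation p = 0.1). Fibroblast-like cells were 37.8%, 25.4% and 21.9% of WT and 42.7%, 51.6% and 41.1% of Arom cells, mesothelial cells 1.38% on average in WT and 7.02% in Arom, and blood endothelial cells 29.1% and 16.4% (2-sided exact permutation p = 0.1 for each, the smallest possible). Under the stated limits on cells, fibroblast-like cells were 45.6%, 38.4% and 22.5% of WT and 33.9%, 56.7% and 28.2% of Arom cells, which overlap (2-sided exact permutation p = 0.7), and blood endothelial shares overlapped as well (2-sided exact permutation p = 0.4). The share of each member's UMIs that came from a cell type moved with them. Fibroblast-like cells held 81.5% of Cxcl14 UMIs in WT and 92.4% in Arom on average, 31.8% and 50.1% of Cxcl16, and 17.3% and 56.4% of Cxcl12. Blood endothelial cells held 61.4% of Cxcl9 in WT and 44.2% in Arom, while mesothelial cells went from 0.73% to 17.8%. These are descriptions with no test.

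**Figure D2:**
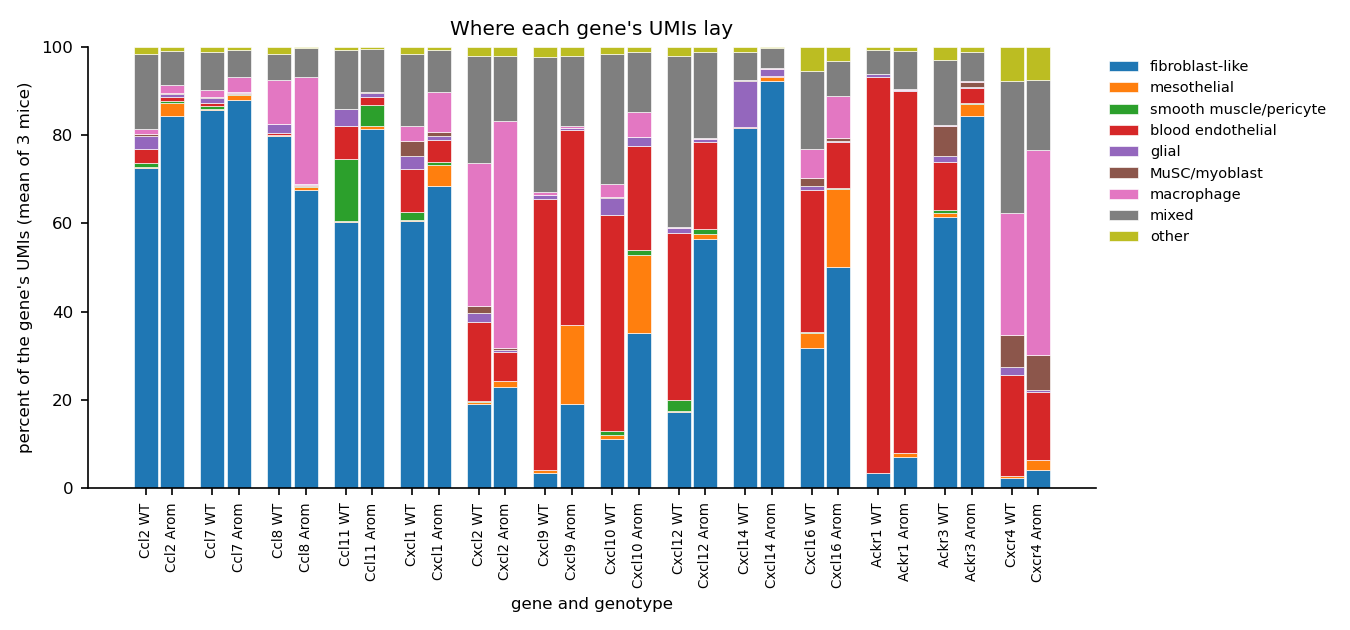
Share of each ligand's or receptor's UMIs (vertical axis, percent of all UMIs of that gene, mean of 3 mice) that came from each cell type (colours), for WT and Arom side by side. The fibroblast-like part of Cxcl12 covers 17.3% in WT and 56.4% in Arom.

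In fibroblast-like cells as one class, Ccl8 was higher and Ccl11 lower in Arom mice. Of 31 members tested, 4 were called higher and 1 lower, beside 13% of all genes (7.52% higher and 5.52% lower). Ccl8 was at 64.7, 66.7 and 45.5 normalised CPM in WT and 197, 296 and 82.5 in Arom (1.70 ± 0.43, edgeR adjusted p = 0.0448). Ccl11 was at 598, 726 and 676 in WT and 487, 397 and 479 in Arom (-0.55 ± 0.13, edgeR adjusted p = 0.0396). Cx3cl1, Cx3cr1 and Ccl17 were also called higher but at no more than 8.60, 1.44 and 0.895 normalised CPM in any mouse, and Ccl17 had no UMI in 2 WT mice. The Ccl8 call was kept only without Arom 3 when 1 mouse was left out (edgeR adjusted p = 0.116 to 0.15 without any other). With the replicate block, 2 members were called higher (Ccl8 and Cxcl16) and 0 lower, beside 5.11% and 4.68% of all genes in that fit, and Ccl11 was not called (-0.55, edgeR adjusted p = 0.0659). The abundant monocyte ligands gave no call. Ccl2 differed by 0.24 ± 0.28 and Ccl7 by 0.13 ± 0.24, with Arom 3 the lowest and Arom 1 the highest of the 6 mice in both. Cxcl14 was at 262, 380 and 478 in WT and 788, 847 and 515 in Arom without overlap (0.94 ± 0.27, edgeR adjusted p = 0.0582). Without overlap, 7 of the 31 were higher and 1 lower, against 20.9% and 18% of all genes.

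The subclusters that made up the fibroblast-like cells differed between the genotypes. Subclusters with at least 10 cells in every mouse held 93.3% of WT but 39.9% of Arom fibroblast-like cells. They were summed together, and their mix still differed. Subcluster 2, for example, held 811, 441 and 320 cells in WT and 135, 217 and 383 in Arom. In these subclusters alone, 2 of 28 members were called, beside 2.8% of all genes. Ccl8 differed by 1.10 (edgeR adjusted p = 0.0462) and was still called, together with Ackr1 (0.60, edgeR adjusted p = 0.0188). Ccl11 lost its call (-0.23, edgeR adjusted p = 0.288). The sum of the 14 dissociation-response genes was 16357 to 18828 CPM in WT and 9884 to 12859 in Arom fibroblast-like cells, and 5 of the 14 were called lower. The sum of 10 macrophage markers there was 10.5 to 12.3 CPM in WT and 15.1 to 36.5 in Arom. The part of either in the member results was not tested.

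Within Esr1hi HAF, 7 members of 23 were called higher and 0 lower, beside 21.2% of all genes called there (10.6% each way). Without overlap, 7 were higher and 2 lower, against 22.1% and 20% of all genes. Ccl8 was at 10.0, 14.4 and 9.04 normalised CPM in WT and 127, 207 and 36.2 in Arom (3.46 ± 0.60, edgeR adjusted p = 0.0106). The Ccl8 call was lost by leaving out WT 3 (3.36, edgeR adjusted p = 0.0521) and by no other mouse. Ccl11, lower in the whole class, was higher here, at 57.8, 48.8 and 53.4 in WT and 267, 208 and 86.8 in Arom (1.81 ± 0.36, edgeR adjusted p = 0.0154). Cxcl14 (2.06), Cxcl16 (1.19), Cx3cl1 (1.45), Ackr3 (0.64) and Ccl6 (2.93, at no more than 1.68 normalised CPM in any mouse) were the others called. Cxcl14 overlapped, with 78.1 in WT 3 and 66.1 in Arom 3. With the replicate block, 9 members were called higher and 3 lower (12% and 12.4% of all genes in that fit), the latter being Ccl7 (-0.47, edgeR adjusted p = 0.0358), Cxcl1 (-0.73, edgeR adjusted p = 0.0448) and Ccl27a (-0.64, edgeR adjusted p = 0.0234), and Cxcl14 was not called (1.74, edgeR adjusted p = 0.0625).

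The name Esr1hi HAF covered different subclusters in the 2 genotypes. Subcluster 2, led by Mup5, Igfbp2 and Nnat, held 811, 441 and 320 cells in WT and 135, 217 and 383 in Arom. Subclusters 1 (led by Erfe, Pnoc and Nppc) and 7 (led by Ngfr, Arl4c and Lrrc15) held 29, 2 and 0 and then 6, 0 and 1 cells in WT, but 804, 1303 and 439 and then 704, 547 and 106 in Arom. Inside subcluster 2, Ccl8 was at 9.91, 14.4 and 8.68 CPM in WT and 47.5, 54.1 and 31.5 in Arom. It was the 1 member called of 20 tested there (1.93, edgeR adjusted p = 0.00792), beside 1.46% of all genes. Ccl11 inside subcluster 2 was at 53.1, 48.7 and 51.3 CPM in WT and 48.9, 59.6 and 73.8 in Arom, which overlap (0.25, edgeR adjusted p = 0.433). In subcluster 7 Ccl11 was at 305 to 504 CPM in the 3 Arom mice, with no WT level to set beside it. The dissociation-response list was called lower in 12 of 14 genes in Esr1hi HAF, and the macrophage markers there summed to 8.94 to 11.8 CPM in WT and 18.4 to 27.1 in Arom. The part of these in the result was not tested.

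**Figure D3:**
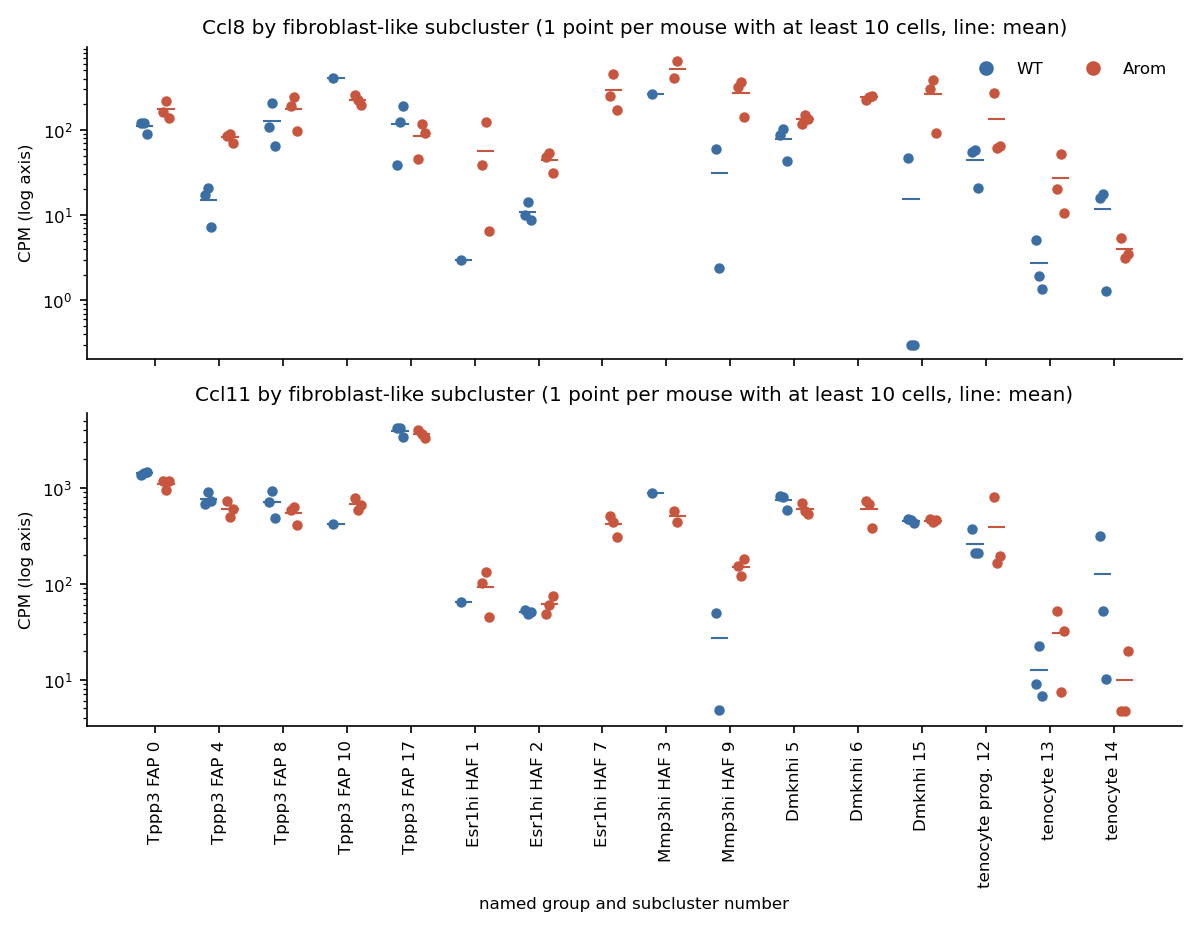
Levels of Ccl8 (upper panel) and Ccl11 (lower panel) in CPM on a log axis, in each fibroblast-like subcluster, with 1 point per mouse that had at least 10 of its cells (WT and Arom in separate colours). In Esr1hi subcluster 2 the Arom points lie above the WT points for Ccl8 and overlap with them for Ccl11.

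Tppp3 FAP were present in every mouse and gave 2 members called higher and 1 lower of 26, beside 4.73% of all genes (2.35% higher and 2.37% lower). Without overlap, 4 were higher and 3 lower, against 13.6% and 13.4% of all genes. Cxcl9 was at 9.38, 8.19 and 11.7 normalised CPM in WT and 25.1, 25.1 and 23.3 in Arom (1.34 ± 0.14, edgeR adjusted p = 0.00201). Ccl8 was at 103, 99.4 and 75.2 in WT and 208, 207 and 128 in Arom (0.96 ± 0.19, edgeR adjusted p = 0.0219). The Cxcl9 call was kept without each mouse in turn (edgeR adjusted p = 0.000436 to 0.0162), and it was lost under the stated limits on cells (0.88, edgeR adjusted p = 0.26). Cxcl13 was lower (-3.13), from 3.31 to 12.3 in WT to 0 to 2.13 in Arom. The dissociation-response genes summed to 13908 to 16995 CPM in WT and 11035 to 12167 in Arom Tppp3 FAP, with 2 of the 14 called lower, and their part was not tested. With the replicate block, 5 members were called higher (Cxcl9, Ccl8, Cxcl16, Cxcl14 and Cxcl3) and 2 lower (Cxcl13 and Ccl11), beside 4.36% and 4.62% of all genes in that fit. In their subcluster 4 alone, Ccl8 was at 17.4, 20.6 and 7.24 CPM in WT and 85.3, 88.9 and 70.8 in Arom. With subcluster 10 left out, which had 11, 3 and 3 cells in WT and 473, 458 and 207 in Arom, none of the 3 calls remained, and Ccl8 differed by 0.62 (edgeR adjusted p = 0.11) and Cxcl9 by 1.23 (edgeR adjusted p = 0.082). The Dmknhi cells, tenocytes and tenocyte progenitors gave 0 calls by edgeR. Of all genes there, edgeR called 0.656%, 1.2% and 0.0261%, made up of 0.314%, 0.641% and 0.0261% higher and 0.342%, 0.559% and 0% lower. DESeq2 gave 2, 0 and 0 calls, beside 2.74%, 4.66% and 1.11% of all genes by that tool. At an unadjusted edgeR p under 0.05 there were 4, 3 and 8 members, with no share of all genes at that threshold to set beside them. The Mmp3hi cells were not tested, because a test took at least 20 cells in every mouse and WT 2 had 6.

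In blood endothelial cells 5 members were called higher and 1 lower of 24, beside 9.37% of all genes (5.07% higher and 4.3% lower). Without overlap, 7 were higher and 2 lower, against 16.1% and 16.4%. Ackr1 was at 1251, 787 and 720 normalised CPM in WT and 2155, 1273 and 1628 in Arom (0.87 ± 0.24, edgeR adjusted p = 0.0472). Ccl11 was at 95.2, 171 and 106 in WT and 59.1, 84.4 and 54.8 in Arom (-0.92 ± 0.23, edgeR adjusted p = 0.0378). Under the stated limits on cells the direction of Ccl11 turned (1.07, edgeR adjusted p = 0.113), at a level there of 9.03 ± 6.06 CPM against 95.1 ± 42.6 in all endothelial cells kept. Ccl7 was at 24.3 to 29.7 in WT and 30.8 to 52.3 in Arom (0.71 ± 0.19, edgeR adjusted p = 0.0443). Ccl8 (4.21), Ccl6 (1.99) and Cxcl14 (1.70) were called higher at low levels, with no mouse above 12.6 normalised CPM.

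The makeup of the vessels stood beside these values. Venular cells were 21.7%, 12.8% and 17.2% of WT and 51.4%, 41.0% and 35.6% of Arom blood endothelial cells (2-sided exact permutation p = 0.1). Inside venular cells Ackr1 was at 3198, 3183 and 2638 CPM in WT and 3294, 2311 and 3167 in Arom, so the groups overlapped. Ccl11 inside venular cells was at 232, 681 and 381 in WT and 87.1, 147 and 102 in Arom, which do not overlap. It lay mostly in 1 subcluster of 44 to 84 cells per mouse, with 1105 to 2049 CPM in WT and 663 to 1048 in Arom. Among its leading genes, Ifitm1, Colec11, Tnc and H2-M9 also lead a smooth muscle/pericyte cluster, and only Selp is a venular marker. The 8 smooth muscle/pericyte markers summed to 5609 to 8535 CPM in it and to 655 to 1072 in the other endothelial cells, so its venular name is uncertain. Without this subcluster, an alternative chosen after seeing the data, Ccl11 in blood endothelial cells differed by 0.39 (edgeR adjusted p = 0.289), so that its lower value rested on this subcluster. Ackr1 (1.04), Ccl7 (1.31), Ccl6 (1.94) and Cxcl14 (1.82) kept their calls, Cxcl16 (0.52) was called as well, and Ccl8 was not tested. That made 5 of 22 members, beside 11.4% of all genes. Another venular subcluster, led by Glycam1, Tnfsf8 and Tacr1, held 25, 3 and 8 cells in WT and 472, 337 and 107 in Arom, and its Ackr1 was at 1989 to 2739 CPM in Arom. With only subclusters present in every mouse, Ackr1 (0.70, edgeR adjusted p = 0.153), Ccl11 (-0.51, edgeR adjusted p = 0.297) and Ccl7 (0.91, edgeR adjusted p = 0.0543) lost their calls. Ccl8, Ccl6 and Cxcl14 kept theirs, which made 3 of 23 members, beside 2.97% of all genes. The 8 fibroblast markers summed to 157 to 192 CPM in WT and 324 to 395 in Arom endothelial cells, and the 10 macrophage markers to 10.0 to 17.8 and 15.1 to 34.8, and their part in the low Ccl8, Ccl6, Ccl7 and Cxcl14 values was not tested. The dissociation-response genes summed to 22742 to 26175 CPM in WT and 15116 to 18211 in Arom endothelial cells, with 9 of the 14 called lower, and their part was not tested either.

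**Figure D4:**
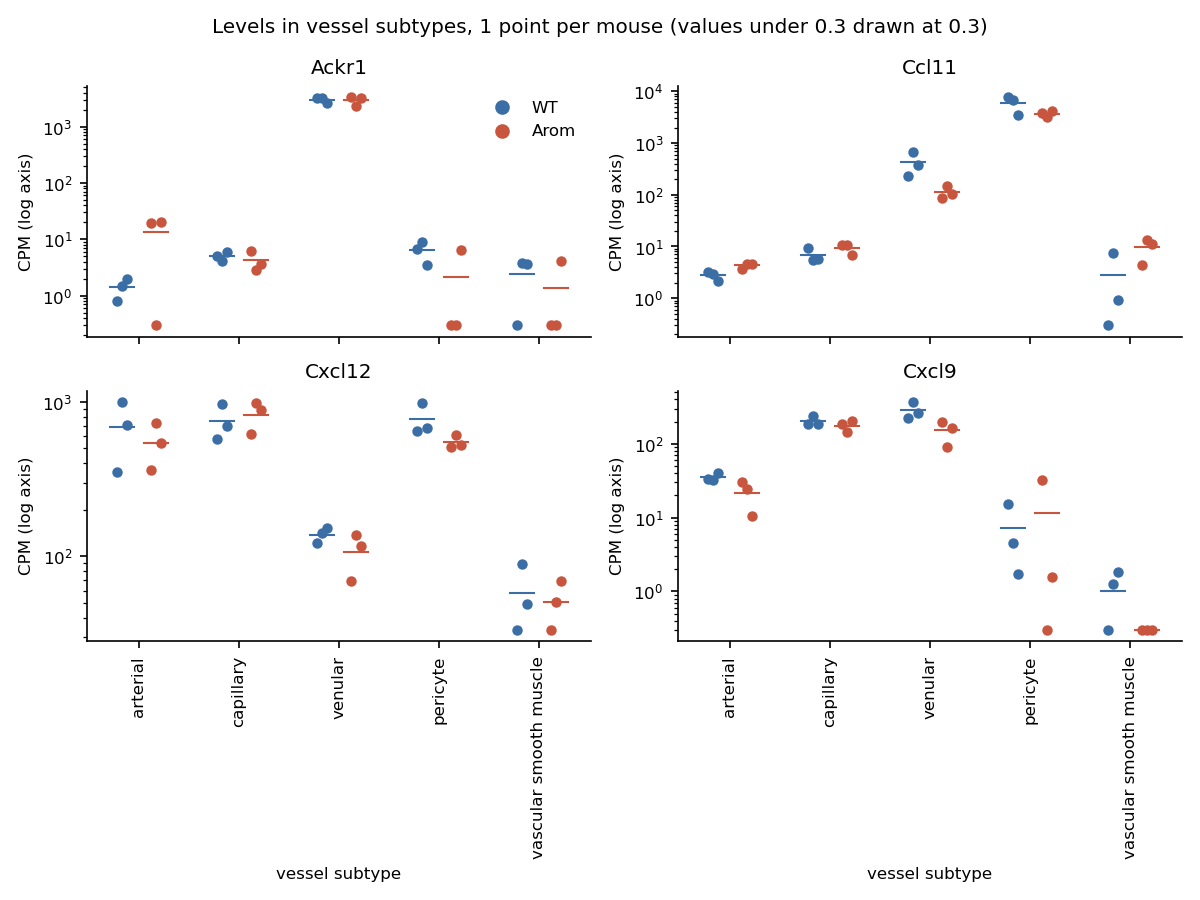
Levels of Ackr1, Ccl11, Cxcl12 and Cxcl9 (CPM, log axis) in capillary, arterial and venular cells, pericytes and vascular smooth muscle cells, with 1 point per mouse coloured by genotype and values under 0.3 drawn at 0.3. Ackr1 is high in venular cells of both genotypes, and the Arom points for Ccl11 lie below the WT points there.

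In MuSC, 2 members were called higher and 0 lower of 16, beside 2.44% of all genes (1.34% higher and 1.1% lower). Without overlap, 2 were higher and 2 lower, against 13.1% and 12.5%. Cxcr4, the receptor of Cxcl12, was at 32.3, 26.1 and 23.1 normalised CPM in WT and 65.0, 69.8 and 39.6 in Arom (1.11 ± 0.23, edgeR adjusted p = 0.0372). Cxcl14 was at 8.22, 12.7 and 6.40 in WT and 22.1, 25.6 and 22.5 in Arom (1.31 ± 0.26, edgeR adjusted p = 0.0351). With the members kept in the clustering, the Cxcl14 difference in MuSC was 0.22 (edgeR adjusted p = 0.83), and with cell types from blocks of the column order it was 0.63 (edgeR adjusted p = 0.331). Ackr3, the other receptor of Cxcl12, was at 361, 696 and 422 in WT and 264, 219 and 278 in Arom (-0.96, edgeR adjusted p = 0.0567) and was not called. With the replicate block, 3 members were called higher (Cxcr4, Cxcl14 and Ccl11) and 4 lower, namely Ackr3 (-0.91, edgeR adjusted p = 0.0351), Ccl27a, Cxcl1 and Cxcl2, beside 3.51% of all genes higher and 3.24% lower in that fit. The macrophage markers summed to 8.03 to 13.4 CPM in WT and 16.7 to 30.4 in Arom MuSC, and the dissociation-response genes to 7847 to 10280 and 4842 to 6796, with 3 of the 14 called lower, and their part in the Cxcr4 value was not tested. The fibroblast markers summed to 454 to 749 CPM in WT and 1155 to 2991 in Arom MuSC, and their part in the Cxcl14 value was not tested. Prm1, Tnp2, Prm2 and Tnp1, which are not MuSC markers, were among the leading genes of the MuSC cluster. At Leiden resolution 1.2 they led a separate, unnamed cluster instead. The part of such cells or their RNA in the MuSC values was not tested. In myonuclei, 2 of 14 were called higher, beside 0.217% of all genes (0.149% higher and 0.0678% lower), namely Cxcl2 (69.1, 85.4 and 93.8 in WT and 212, 278 and 247 in Arom, 1.58 ± 0.19, edgeR adjusted p = 0.0168) and Ccl4 (1.63, 0 and 0 in WT and 33.8, 24.7 and 12.3 in Arom, edgeR adjusted p = 0.0429). These were also the 2 members without overlap there, against 7.35% of all genes higher and 6.31% lower. Both are led by macrophages, whose markers summed to 9.48 to 45.5 CPM in WT and 156 to 263 in Arom myonuclei, and their part in these values was not tested. Without cells marked as doublets Cxcl2 lost its call (1.33, edgeR adjusted p = 0.101).

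In macrophages, 0 of 26 members were called by edgeR, beside 0% of all genes, and 0 of 35 by DESeq2, beside 0.0783%. At an unadjusted edgeR p under 0.05 there were 3 members, with no share of all genes at that threshold to set beside them. The smallest library there held 70 cells and the largest 1356. Of the receptors, Ccr2 was at 123, 198 and 138 normalised CPM in WT and 183, 279 and 204 in Arom, and Ccr1 differed by 0.05 ± 0.27, each with overlap. Without overlap, 0 members were higher, against 5.3% of all genes, and the 3 that were lower, against 4.6%, were Cxcl9 (16.5 to 23.5 in WT, 0.313 to 5.39 in Arom), Cxcl12 (11.8 to 24.0 and 3.13 to 7.37) and Ccr7 (34.0 to 38.1 and 22.5 to 26.0). Their adjusted p-values were 0.713, 0.93 and 0.93 by edgeR. The share of macrophages among all cells was 2.43%, 1.81% and 0.93% in WT and 11.96%, 5.62% and 1.86% in Arom, where WT 1 and Arom 3 overlap (2-sided exact permutation p = 0.2). Subclusters with at least 10 cells in every mouse held 54.3% of WT and 36.6% of Arom macrophages, and 1 of the others had 3, 0 and 1 cells in WT and 234, 236 and 1 in Arom. T cells, dendritic cells, B cells and neutrophils, with fewer than 20 cells in some mice, were not tested in the main set of cell types. With the mixed subclusters kept, T cells reached 20 cells in every mouse. There, 3 of 15 members were called higher and 0 lower, beside 0.872% of all genes. The other clusterings also kept the mixed subclusters. At Leiden resolution 1.2, 3 of 15 members were called higher and 0 lower in T cells, beside 0.876% of all genes.

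Mesothelial cells, which line the abdominal cavity, gave 0 calls of 24 by edgeR, beside 0.205% of all genes (0.18% higher and 0.0256% lower). DESeq2 gave 8 calls of 33, beside 4.24% of all genes by that tool. With the replicate block, edgeR called 4 members higher and 0 lower, beside 2.65% and 1.43% of all genes in that fit. At an unadjusted edgeR p under 0.05 there were 9 members, with no share of all genes at that threshold to set beside them. Without overlap, 8 members were higher and 0 lower, against 13.5% and 11.9% of all genes. Cxcl1 was at 306, 144 and 185 normalised CPM in WT and 1512, 1730 and 434 in Arom (2.53 ± 0.50, edgeR adjusted p = 0.0662). Ccl2 was at 363, 208 and 325 in WT and 1591, 1560 and 399 in Arom (1.99 ± 0.48, edgeR adjusted p = 0.0837). Cxcl16 (1.54), Cxcl10 (1.33), Cxcl9 (1.26) and Ccl8 (2.66) were also among the 8. The fibroblast markers summed to 16185 to 17443 CPM in WT and 18698 to 19593 in Arom mesothelial cells, and their part in these values was not tested. WT mice had 146, 163 and 66 of these cells and Arom mice 644, 985 and 659.

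Glial cells, lymphatic endothelial cells and smooth muscle/pericytes gave 0 calls of 17, 15 and 14 members by edgeR (0.435%, 0.0132% and 0.295% of all genes, made up of 0.265%, 0.0132% and 0.26% higher and 0.17%, 0% and 0.0355% lower). DESeq2 gave 1, 0 and 0 calls, beside 0.612%, 0.174% and 0.45% of all genes. With the replicate block, edgeR called 3, 0 and 2 members, all higher, beside 1.78%, 0.0132% and 1.15% of all genes. At an unadjusted edgeR p under 0.05 there were 6, 4 and 7 members, with no share of all genes at that threshold to set beside them. Without overlap, 6 members were higher and 1 lower in glial cells (8.14% and 7.97% of all genes), 1 and 1 in lymphatic endothelial cells (5.86% and 6.3%), and 2 and 1 in smooth muscle/pericytes (8.05% and 7.77%). In Dmknhi cells, of which subclusters present in every mouse held 99.9% in WT but 44.5% in Arom, these counts were 4 and 2 of 21 (11% and 10.6%), in tenocytes 1 and 1 of 15 (11.7% and 12.2%) and in tenocyte progenitors 2 and 2 of 17 (9.26% and 9.35%). Counted over the cell types and fibroblast subclusters tested, which are not independent because fibroblast-like cells contain the subclusters, Ccl8 was higher without overlap in 9 of 13 and called in 4, and Cxcl14 in 7 of 13 and called in 3. Cxcl16 had a positive fold change in 14 of 14, with 5 free of overlap and 1 called. Ccl27a was lower without overlap in 6 of 12 and called in none. These members were taken for their high counts, and the share of all genes that reach such counts was not computed.

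**Figure D5:**
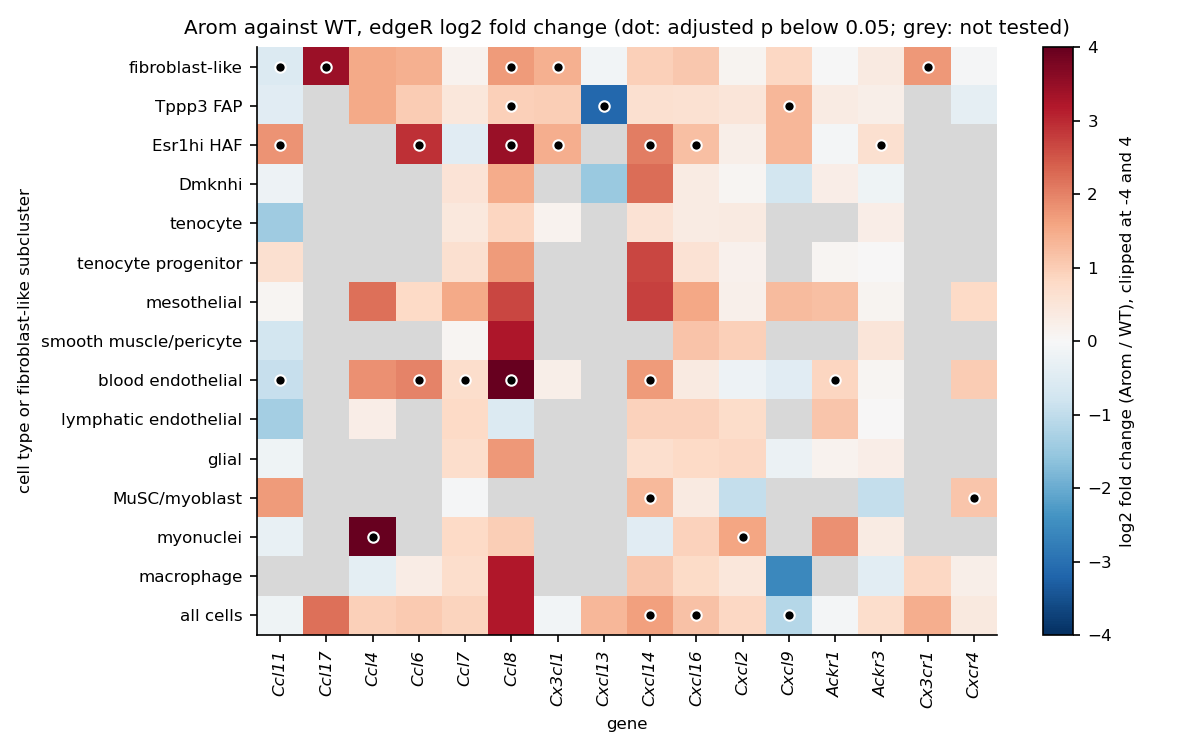
Log2 fold change, Arom over WT, of each member called in at least 1 comparison (columns), in each cell type or fibroblast-like subcluster tested (rows), on a colour scale clipped at -4 and 4, with dots for an edgeR adjusted p below 0.05 and grey fields where a member was not tested. The Ccl8 and Cxcl14 columns hold 4 and 3 calls among cell types and fibroblast-like subclusters, all higher in Arom. Cxcl14 alone of these was also called in the sum over all cells.

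Other genes of the chemokine system were read from 3 lists. Of the inducers of chemokine transcription (cytokines, their receptors and transcription factors), 6 were called higher and 2 lower of 22 in blood endothelial cells, with Il13ra1 (0.89) and Il1r1 (0.83), receptors for interleukins 4/13 and 1, among the higher and Tnf (-1.39) and Irf1 (-0.75), which drives interferon genes, the lower. Of all genes there, 5.07% were called higher and 4.3% lower. The median over the 22 was 0.35. In fibroblast-like cells 2 were higher and 3 lower of 23 (7.52% and 5.52% of all genes), with Il4ra (0.55) and Il1b (2.74, at most 2.69 normalised CPM) higher and Tnf (-1.52) and Cebpd (-1.25) among the lower. In Esr1hi HAF 1 was higher (Ifngr2, 0.49) and 7 lower of 22 (10.6% of all genes each way), led by Tnf (-1.98) and Cebpd (-1.79). Il4ra was the 1 inducer of 22 called in mesothelial cells (2.67, beside 0.205% of all genes), at 15.7, 13.8 and 9.43 in WT and 113, 89.97 and 52.7 in Arom, and it was the 1 of 21 called in Tppp3 FAP (0.80, beside 4.73% of all genes).

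Of the genes for signalling below chemokine receptors, 4 of 15 were called higher and 0 lower in blood endothelial cells (5.07% and 4.3% of all genes), led by Pik3r5 (2.48), a subunit of the PI3-kinase driven by G proteins, and Arrb1 (1.17), an arrestin that ends receptor signalling. In Esr1hi HAF 0 were higher and 5 of 16 lower (10.6% of all genes each way), led by Rgs1 (-3.25) and Rgs16 (-1.24), which shorten G-protein signals. Rgs1 was also called lower in fibroblast-like cells (-1.67) but higher in myonuclei (3.48), where macrophage markers were higher as well. Among the remaining chemokine-system genes in Esr1hi HAF, Cd74 (2.06) and Mif (0.91), a receptor and its chemokine-like ligand, and Cmklr1 (0.97), a chemerin receptor, were called higher, and Dpp4 (-1.23), a protease that trims chemokines, lower, of 7 tested. Rarres2, which encodes chemerin, was at 207, 241 and 245 normalised CPM in WT and 102, 102 and 108 in Arom MuSC (-1.16, edgeR adjusted p = 0.0152). These calls are from the same fit and adjustment as the members'.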

How the data were processed

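LAM cells of 3 WT and 3 Aromhum mice were sequenced with 10x Genomics 3' chemistry. Per the labels, the authors aligned reads to mm10 with Cell Ranger 3.0.2 and deposited 1 matrix of UMI counts per gene and cell, which holds whole, unnormalised counts of 16494 genes in 63647 barcodes. Kept were 59227 cells with at least 200 genes and 1000 UMIs; the study's stated limits (up to 2500 genes and 5% mitochondrial UMIs) leave 18852, tried as an alternative. Total UMIs per library were 64958237 to 72876541 in WT and 92652109 to 111826460 in Arom. Precision is lowest where a type has few cells. Cells were clustered with scanpy 1.11.5 (2000 variable genes, 30 components, 20 neighbours, Leiden resolution 0.8), without the members, and named from marker lists. Subclusters with more markers of another class (mixed) were left out, but not in the alternative clusterings. Doublets marked by Scrublet (1.15% to 2.92% per library) were kept. For WT 3 the threshold was the median of the other libraries' thresholds, because the automatic one marked 0 cells. Counts summed per mouse and type (at least 20 cells in each mouse) were tested with edgeR 4.0.16 (R 4.3.3, TMM, filterByExpr, quasi-likelihood F test) by genotype, with DESeq2 1.42.0, other normalization, filters, cell limits, clusterings, a replicate block and each mouse left out as alternatives. The procedure was tested on simulated data. Named with values were members reaching 20 CPM in a type or called in any test, and genes of the other lists that were called, up to 2 largest each way. In Esr1hi HAF all 3 remaining chemokine-system genes called higher were named. Of the list genes, others were counted. Subclusters and leading genes beyond these were chosen after their values were seen. Members and lists were chosen with earlier results of these data known. For 33 of the 45 members a RefSeq promoter was matched by symbol. The values of 1 member are not reported here.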

Additional observations from a re-analysis of the deposited data

Results flagged for a closer look

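Some members had fold changes of opposite sign in different cell types, with every Arom mouse above every WT mouse in one and below in the other. The share of all genes that meet this rule was not computed. Lack of overlap was common among all genes, at 22.1% higher and 20% lower in Esr1hi HAF and 5.3% and 4.6% in macrophages. The differences between cell types were not tested, and fibroblast-like cells contain the Esr1hi HAF and Tppp3 FAP. Ccl11 had a log2 fold change (Arom over WT) of 1.81 in Esr1hi HAF but -0.92 in blood endothelial cells (1.07 under the stated limits on cells and 0.39 without 1 subcluster that carried pericyte genes, neither called), -0.55 in fibroblast-like cells, -1.36 in lymphatic endothelial cells and -0.47 in Tppp3 FAP. Inside the Esr1hi subcluster present in every mouse it was 0.25, with overlap. Ackr3 was 0.64 in Esr1hi HAF and 0.26 in glial cells but -0.96 in MuSC. Ccl7 was 0.71 in blood endothelial cells and 0.72 in glial cells but -0.46 in Esr1hi HAF, and Cxcl1 was 2.53 in mesothelial cells but -0.68 in Esr1hi HAF. Cxcl9 was 1.26 in mesothelial cells and 1.34 in Tppp3 FAP but -0.46 in blood endothelial cells and -2.58 in macrophages. Of these values, the called ones are Ccl11 in Esr1hi HAF, blood endothelial and fibroblast-like cells, Ackr3 in Esr1hi HAF, Ccl7 in blood endothelial cells and Cxcl9 in Tppp3 FAP (edgeR adjusted p below 0.05).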

How the results depend on the processing

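Of 28 called pairs of member and cell type, recomputed 437 times, 263 recomputations kept direction and call, 172 kept direction only and 2 reversed: Ccl11 in blood endothelial cells was 1.07 (edgeR adjusted p = 0.113) under the stated limits on cells and 0.39 (edgeR adjusted p = 0.289) without the endothelial subcluster led by pericyte genes, an alternative chosen after seeing the data. The counts of calls depended on which mice entered. Leaving out 1 mouse gave 0 to 17 calls over all cells, 0 to 6 in MuSC, 0 to 11 in blood endothelial, 0 to 18 in fibroblast-like, 0 to 2 in glial, 0 to 10 in mesothelial, 0 to 3 in myonuclei, 0 to 2 in smooth muscle/pericyte cells, 0 to 5 in Dmknhi, 0 to 14 in Esr1hi, 1 to 9 in Tppp3, and 0 to 1 in tenocytes and their progenitors. Of all genes, the same fits called 0% to 30.8% over all cells, 0% to 9.14% in MuSC and 0.0144% to 29.9% in fibroblast-like cells. The shares were 1.44% to 12.4% in blood endothelial, 0.0718% to 1.01% in glial, 0% to 13.4% in mesothelial and 0.012% to 1.19% in myonuclei. They were 0.0115% to 0.431% in smooth muscle/pericytes, 0% to 10.2% in Dmknhi, 6.14% to 32.9% in Esr1hi and 0.876% to 8.97% in Tppp3. Tenocytes had 0.0216% to 6.08% and their progenitors 0% to 2.2%. Without Arom 3, 27 of the 28 calls were kept; without WT 1, 10; without any other mouse, 2 to 4. The stated limits left 0 calls over all cells, in fibroblast-like cells and in myonuclei, 3 in blood endothelial cells and 1 each in Esr1hi and Tppp3, and 3 cell types whose shares did not overlap. Of all genes, 0%, 0.00919%, 0%, 5.4%, 4.7% and 0.44% were called there, in the order of these groups. Of 33 levels, 7 moved by more than the spread between mice under these limits (Ccl21a, Cxcl3, Cxcl2, Ackr4, Ccr1, Ccl7 and Ccl11, each in its leading cell type). DESeq2 gave 11 over all cells (34.7% of all genes called), 8 in fibroblast-like (18.6%), 1 in glial (0.612%), 8 in mesothelial (4.24%), 2 in Dmknhi (2.74%) and 11 in Esr1hi cells (19.5%). With no filter on low counts there were 5 in MuSC, 3 each in fibroblast-like, glial, lymphatic, mesothelial and Dmknhi, 5 each in myonuclei, smooth muscle/pericytes and Tppp3, 4 in tenocytes and 7 in progenitors. Of all genes, 3.41%, 9.13%, 0.652%, 0.569%, 0.9%, 1.85%, 0.898%, 1.15%, 4.26%, 2.89% and 2.94% were called in these fits, in the same order. Without doublets myonuclei had 0, beside 0.0458% of all genes. Smooth muscle/pericytes had 3 at Leiden resolution 1.2 (2.46% of all genes) and 2 with members kept in clustering (2.57%), where MuSC had 1 (2.32%). T cells, which could be tested in these 2 alternatives, had 3 of 15 (0.876%) and 2 of 15 (0.492%), respectively. Both alternatives also kept the mixed subclusters, so for smooth muscle/pericytes and T cells the 2 changes cannot be told apart there. Further alternatives were chosen after seeing the data. Cell types from blocks of the column order gave 1 in MuSC (3.51% of all genes), 3 in blood endothelial (8.67%), 1 in glial (0.802%), 2 in smooth muscle/pericyte (3.31%) and 0 in T cells (0%). With mixed subclusters kept there were 3 in smooth muscle/pericytes (2.67%) and 3 in T cells (0.872%). Subclusters present in every mouse alone gave 3 in blood endothelial (2.97%), 2 in fibroblast-like (2.8%), 1 in Esr1hi (1.46%) and 0 in Tppp3 cells (1.48%).

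The study processed 1 littermate pair per date, but the labels do not say which numbers belong together. Deviations of same-numbered mice from their group means correlated at 0.47, -0.05 and 0.50 over all cells, where Arom 2 correlated best with WT 1 (0.33). Such sums also carry differences in cell shares. The main fits did not treat the numbers as pairs. All 3 were above 0.1 in blood endothelial cells (0.25 to 0.46), MuSC (0.10 to 0.25), myonuclei (0.15 to 0.27) and macrophages (0.10 to 0.49). In these types, glial cells, smooth muscle/pericytes, tenocytes and tenocyte progenitors, each Arom mouse correlated best with the WT mouse of its number. In the other types and fibroblast subclusters tested this did not hold for every mouse. The main fits may therefore leave out a pairing by date, which the replicate block allows for. With the number as a replicate block there were 10 calls over all cells, 7 in MuSC, 8 in blood endothelial (6 higher and 2 lower), 2 in fibroblast-like, 3 in glial, 4 in mesothelial, 2 in smooth muscle/pericyte, 3 in Dmknhi, 12 in Esr1hi, 7 in Tppp3, 1 in tenocyte and 2 in tenocyte progenitor cells. Of all genes, 26.2%, 6.74%, 19%, 9.79%, 1.78%, 4.08%, 1.15%, 2.96%, 24.4%, 8.98%, 5.21% and 3.25% were called in these fits, in the same order. Of the 28 calls, 6 were lost with the block (edgeR adjusted p = 0.051 to 0.0659): Cxcl9 over all cells, Ccl11, Cx3cl1, Ccl17 and Cx3cr1 in fibroblast-like cells and Cxcl14 in Esr1hi cells. Ccr2 in macrophages was not called with it either (0.54, edgeR adjusted p = 0.576).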
